A study of Caenorhabditis elegans with 2 samples.

Results

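Binding of ZTF-11 was described around 10 genes of Caenorhabditis elegans that set the sex of the animal or equalise X-linked expression between the sexes: xol-1, her-1, sdc-1, sdc-2, sdc-3, dpy-21, dpy-26, dpy-27, dpy-28 and mix-1. They are 10 of the 19973 protein-coding genes of the nuclear chromosomes. The genes were chosen by their function after an earlier look at the signal scores of these regions, in which a strong peak lay near xol-1. The scores and distances given here are therefore descriptions, and none of them was tested. A gene's window ran from 5000 bp upstream of its 5′ end to 5000 bp past its other end, and every summit in it was taken.

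The study mapped ZTF-11, which belongs to the MYT1 family of zinc finger proteins, by chromatin immunoprecipitation and sequencing. The samples were whole second-stage (L2) larvae, male and female pooled, of strain OP236, whose genotype is unc-119(ed3) III; wgIs236. This transgenic line stably expresses ZTF-11 with GFP and FLAG at its C terminus. There was 1 group with 2 biological replicates, chromatin was sonicated, and 1 control experiment is named for both. Both replicates thus carried the tagged protein and the unc-119 mutation, and no second strain, stage or sex was compared. The labels do not give the share of males. A whole larva mixes tissues, and these samples mixed sexes, so a region cannot be assigned to a cell type or to a sex. The deposited values are regions, each with a summit and the authors' signal score, in 4 lists: a pooled list of 20223 regions, a list of 30000 for each replicate, and the authors' thresholded set of 210. On the nuclear chromosomes the pooled scores ran from 9.17 to 116.3 with a median of 11.7. The medians were 6.62 in replicate 1 and 5.58 in replicate 2, and the thresholded nuclear peaks were the 188 highest of the pooled list, from 32.9 upward. The number of reads is unknown, so the precision of a score is known only from its value in the other replicate.

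In C. elegans the ratio of X chromosomes to autosomes decides sex. X-linked signal elements keep xol-1 low in XX embryos, whereas xol-1 is active in XO embryos and turns off the hermaphrodite programme. Where xol-1 is low, SDC-2, with SDC-1 and SDC-3, represses the male-determining gene her-1 and brings the dosage compensation complex to the X chromosomes. That complex contains a condensin (DPY-26, DPY-27, DPY-28, MIX-1) and the histone demethylase DPY-21, and it lowers expression from both hermaphrodite X chromosomes. It is loaded at recruitment elements on X, which carry a short motif known by the letters CGCGCAGGG, and spreads from there.

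Of the 10 genes, xol-1 and dpy-28 had a thresholded summit in their windows. Among all nuclear protein-coding genes 2.67% had one, and among X genes 3.84%, figures that are given as background only because the genes were chosen with these regions known. Both summits lay far upstream of the member and away from its own start. In a narrower promoter window, which began 1500 bp before the 5′ end and stopped 500 bp after it, 0 of the 10 genes had a thresholded summit, against 0.941% of all genes. The sequence around these summits, and around the strongest summit close to a member's own start, is printed first.

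The xol-1 summit is at chrX:8036417 (WBcel235, the build of ce11), between genes. The 201 bases around it, from chrX:8036317-8036517 on the + strand of the RefSeq genome sequence, are shown because they hold the 9-letter word of the recruitment motif in both orientations. Capitals mark the word as CGCGCAGGG and as its reverse complement.
xol-1: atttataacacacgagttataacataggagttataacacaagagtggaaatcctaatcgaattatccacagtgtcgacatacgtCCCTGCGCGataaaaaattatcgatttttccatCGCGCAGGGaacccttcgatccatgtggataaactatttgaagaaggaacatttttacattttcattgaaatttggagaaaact
The middle of the reverse copy was 12 bp before the summit and the middle of the forward copy 21 bp after it. The summit thus lay between both copies.

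The dpy-28 summit is at chrIII:10759239. The printed bases, chrIII:10759139-10759306 on the + strand, end just before the annotated 5′ end of tasp-1, the gene next to the summit. Capitals mark a 7-letter word, CGGAGTG or its reverse complement, which was picked out after this sequence had been read.
dpy-28: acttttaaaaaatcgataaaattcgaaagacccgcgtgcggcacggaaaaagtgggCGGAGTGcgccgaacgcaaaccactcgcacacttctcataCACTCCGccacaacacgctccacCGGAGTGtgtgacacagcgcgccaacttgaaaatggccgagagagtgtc
The word occurred 3 times here. It was present in the 300 bases around the summit in 10 of the 188 thresholded nuclear peaks (5.32%) and in 1.01% of the other pooled regions. None of the recruitment words CGCAGGG, GCGCAGGG and CGCGCAGGG was found in that window on either strand.

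The sdc-3 summit is at chrV:15048347, in the space just upstream of sdc-3, which runs on the − strand. The 201 bases at chrV:15048247-15048447 are printed on the + strand to show a stretch rich in purines, with the GA word AGAGAG in capitals, also picked out after reading.
sdc-3: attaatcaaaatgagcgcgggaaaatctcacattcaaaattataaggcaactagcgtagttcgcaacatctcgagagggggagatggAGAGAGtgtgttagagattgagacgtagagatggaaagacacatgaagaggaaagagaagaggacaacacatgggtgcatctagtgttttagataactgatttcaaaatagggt
Purines made up 66.2% of these bases, against 52.7% at xol-1 and 55.4% at dpy-28. AGAGAG was present at 46.8% of the thresholded nuclear peaks and at 13.6% of the other pooled regions, in 300 bases and on either strand. It is also in the bases printed for dpy-28, in small letters near their end.

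xol-1, the switch gene (WBGene00006962, chromosome X, 8041313 to 8044409, + strand), had the strongest peak of the 10. Its summit was 4896 bp upstream of the gene, just inside the window. The pooled score was 90.4, ninth by rank among nuclear regions. The score was 62.5 in replicate 1, where only 1 nuclear region was higher, and 28.8 in replicate 2, at rank 27. Both replicates therefore placed it near the top, but the replicate 1 score was 2.17 times the other. The summits of the replicate regions lay 0 and 71 bp from the pooled one.

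xol-1 was the nearest protein-coding gene to this summit, yet noncoding genes were closer. The 5′ end of the ncRNA gene C18A11.13 was 257 bp away, and those of tRNA genes were 340 and 1090 bp away. Nearer to xol-1 itself only weak regions were listed. A pooled summit 1671 bp upstream scored 10.7, with 7.40 in replicate 1 and 4.05 in replicate 2. Just upstream of the 5′ end, at 142 bp, replicate 1 alone had a region, with a score of 5.77. Replicate 1 alone also had summits 1907 and 4386 bp upstream, with scores of 10.8 and 8.31. The pooled and replicate 2 scores and the 5.77 lie below the median of their list, and the other replicate 1 scores above it.

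**Figure D1:**
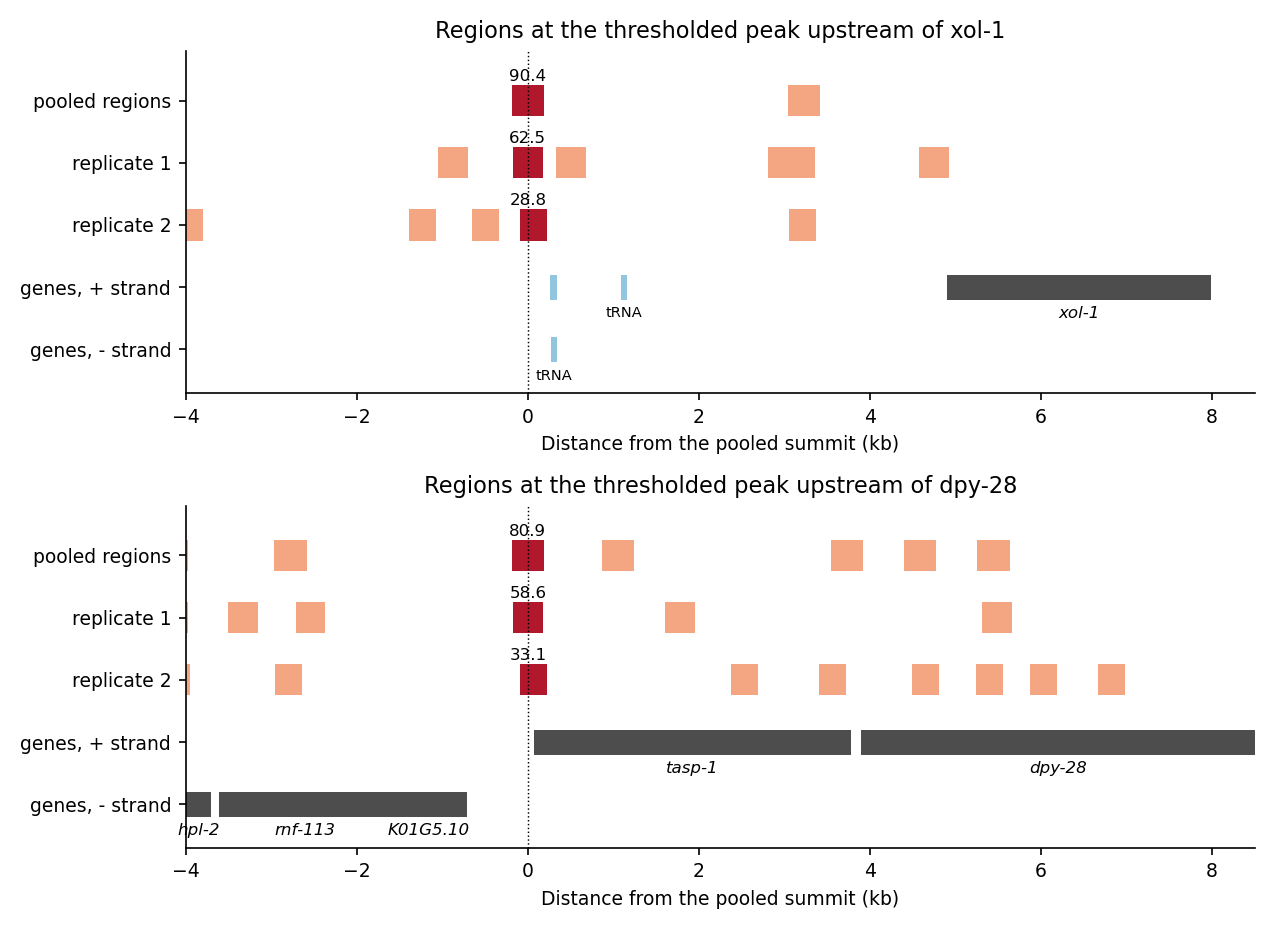
Regions of the pooled and replicate lists and annotated genes around the thresholded summits near xol-1 and dpy-28, plotted by distance from the pooled summit in kb. Dark red regions score above 25 and carry their score, other regions are pale, coding genes are dark grey and noncoding genes light blue. Each peak was in all 3 lists, with scores of 90.4, 62.5 and 28.8 near xol-1 and of 80.9, 58.6 and 33.1 near dpy-28, and the member began 4896 or 3892 bp to the right.

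dpy-28, which encodes a regulatory subunit of the condensin (WBGene00001087, chromosome III, 10763131 to 10777076, + strand), had the other thresholded summit, 3892 bp upstream. The pooled score was 80.9, at nuclear rank 14. The score was 58.6 in replicate 1 (rank 3) and 33.1 in replicate 2 (rank 16), with summits 6 and 68 bp from the pooled one. The replicates thus agreed on a strong region, and replicate 1 was again higher, by a factor of 1.77. Scores ran higher in replicate 1 over the whole nuclear lists too, with a median of 6.62 against 5.58. The score at rank 1000 was 13.2 against 11.4.

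Other genes began nearer to that summit than dpy-28 did. It lay 68 bp upstream of tasp-1, which encodes a taspase-like protease, 717 bp from the start of K01G5.10, 1599 bp from that of rnf-113 and 3709 bp from that of hpl-2, a heterochromatin protein 1 gene. The whole of tasp-1 lies between the summit and dpy-28. The lists give no link between a region and a gene other than distance. At the start of dpy-28 itself, a pooled summit 164 bp upstream, in the 3′ UTR of tasp-1, scored 15.4. A replicate 2 region with a score of 6.11 overlapped the pooled region and ended 9 bp short of its summit, and replicate 1 had no overlapping region. Across the gene body and downstream 8 further pooled summits scored from 11.0 to 14.5, and 1 inside tasp-1 scored 9.60.

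The xol-1 and dpy-28 peaks had similar scores in every list. By the distance of log2 scores in the pooled and both replicate lists, the 3 nuclear peaks nearest to xol-1, among 181 found in both replicates, were those nearest to puf-9 (0.24), cest-16 (0.25) and tasp-1, the dpy-28 peak (0.27). The nearest to the dpy-28 peak were the same puf-9 peak (0.27), xol-1 (0.27) and cest-16 (0.33). The puf-9 peak scored 93.6 pooled, 53.6 in replicate 1 and 30.5 in replicate 2, and the cest-16 peak 98.2, 66.4 and 33.1. The last lay in an intron of mom-1, 3398 bp from the start of cest-16, which is named for its carboxylesterase family. It also held CGCGCAGGG.

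**Figure D2:**
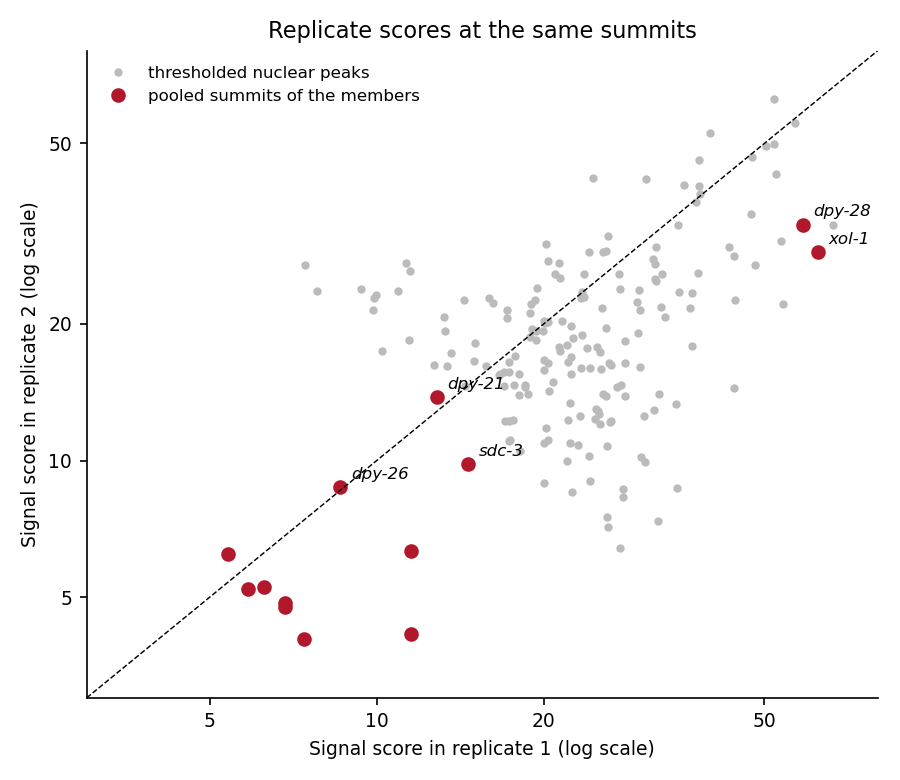
Signal score in replicate 1 (x axis, log scale) and replicate 2 (y axis, log scale) at pooled summits found in both: red points are the members' 13 summits, grey points the thresholded nuclear peaks, and the dashed line marks equal scores. xol-1 (62.5 and 28.8) and dpy-28 (58.6 and 33.1) lie below the line at the upper right, dpy-21 (12.9 and 13.8) lies close to it, and sdc-3 (14.6 and 9.80) lies below it.

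The SDC genes differed among themselves. sdc-3, a zinc finger gene (WBGene00004747, chromosome V, 15039148 to 15048207, − strand), had the strongest pooled summit of any member in the promoter window. That summit, 140 bp upstream of its 5′ end, scored 27.2 pooled, at nuclear rank 318, with 14.6 in replicate 1 (rank 602) and 9.80 in replicate 2 (rank 2043). The region was present in both replicates and fell short of the thresholded set, whose lowest nuclear score was 32.9 and whose highest excluded score was 32.8. A second summit, in coding sequence, scored 9.77 and was in replicate 2 only, at 5.70.

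sdc-1, another zinc finger gene (WBGene00004745, chromosome X, 16275763 to 16282534, + strand), had 1 pooled summit, 318 bp upstream, with a score of 11.0. Replicate 1 gave 7.55 there and replicate 2 had no region. sdc-2, the X-linked gene that triggers hermaphrodite development (WBGene00004746, chromosome X, 11522707 to 11533450, + strand), also had a single pooled summit. It scored 9.27, the lowest of the members' leading scores, and lay 15580 bp from the 5′ end in an intron of gcp-2.2, past the far end of sdc-2.

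The replicates did not share their strongest regions near sdc-2. Replicate 2 had a summit 2369 bp upstream with a score of 14.1, at nuclear rank 356, and 1272 bp from the start of hpo-34. Neither the pooled list nor replicate 1 had a region there. Replicate 1 had its strongest summit in coding sequence, 2275 bp into the gene, at 11.8. In all the window held 3 summits of replicate 1 and 4 of replicate 2.

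her-1, which encodes the secreted ligand that makes XO animals male (WBGene00001842, chromosome V, 9697015 to 9702035, + strand), had 3 weak pooled summits. The first lay 4108 bp upstream, 155 bp from the start of ZK287.7, and scored 11.1, with 10.4 in replicate 1 and none in replicate 2. The second, in an intron of her-1 at 3429 bp, also scored 11.1, and only replicate 2 had it, at 7.54. The third lay near the end of the window in xbx-6 and scored 9.68. None of the 3 was held by regions of both replicates, and the pooled scores are below the median of that list.

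Among the genes of the complex, dpy-27, the SMC4-like ATPase of the dosage compensation complex (WBGene00001086, chromosome III, 3813018 to 3819679, − strand), had a score of 27.6 at nuclear rank 301. That summit lay in its own 3′ UTR, at the far end of the gene. Replicate 1 gave 13.2 (rank 996), and replicate 2 had no region there. The 300 bases around it held 5 copies of AAAGTT, the core word known for MYT1-family fingers, which 0.272% of the 20201 nuclear pooled windows matched or exceeded. A copy count was chosen after the sequence had been seen, and the bases are not printed because they are UTR. At the other end of dpy-27, a summit 935 bp upstream scored 10.9, with 11.5 and 6.33 in the replicates.

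dpy-21, the histone H4 lysine demethylase gene (WBGene00001080, chromosome V, 17936282 to 17949193, − strand), had 11 pooled summits. The strongest was 322 bp upstream at 19.0, and the replicates gave 12.9 and 13.8, closer in score than at the leading summits of xol-1, sdc-3 and dpy-28. Their summits were farther apart, however, at 192 bp, against 71, 27 and 62 bp at those genes, and neither lay in the other replicate's region. A second upstream summit, at 2289 bp, scored 17.6 and lay 467 bp from the start of Y59A8B.24. Replicate 2 scored it 18.8, at nuclear rank 120, whereas replicate 1 had no region there. The other 9 scored from 9.59 to 14.8.

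dpy-26, the kleisin-like subunit gene (WBGene00001085, chromosome IV, 12445801 to 12451335, − strand), had its strongest summit past its 3′ end, 9769 bp from its start. The score was 17.1, with 8.60 in replicate 1 and 8.72 in replicate 2, and the start of C25G4.17 was 449 bp away. A summit 105 bp inside dpy-26 scored 11.2. The strongest dpy-26 region of replicate 1, at 12.4 and nuclear rank 1380, overlapped that pooled region and ended 8 bp short of its summit, and replicate 2 had no overlapping region. mix-1, the SMC2-like subunit shared with the mitotic condensins (WBGene00003367, chromosome II, 10824246 to 10841424, + strand), had an intronic summit of 16.5 that lay 3 bp from the 5′ end of the snoRNA gene M106.6. Replicate 2 gave 4.37 at that summit. A replicate 1 region with a score of 7.64, its strongest near mix-1, overlapped the pooled region and ended 62 bp short of the summit. Its other 4 summits scored from 9.26 to 12.2.

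**Figure D3:**
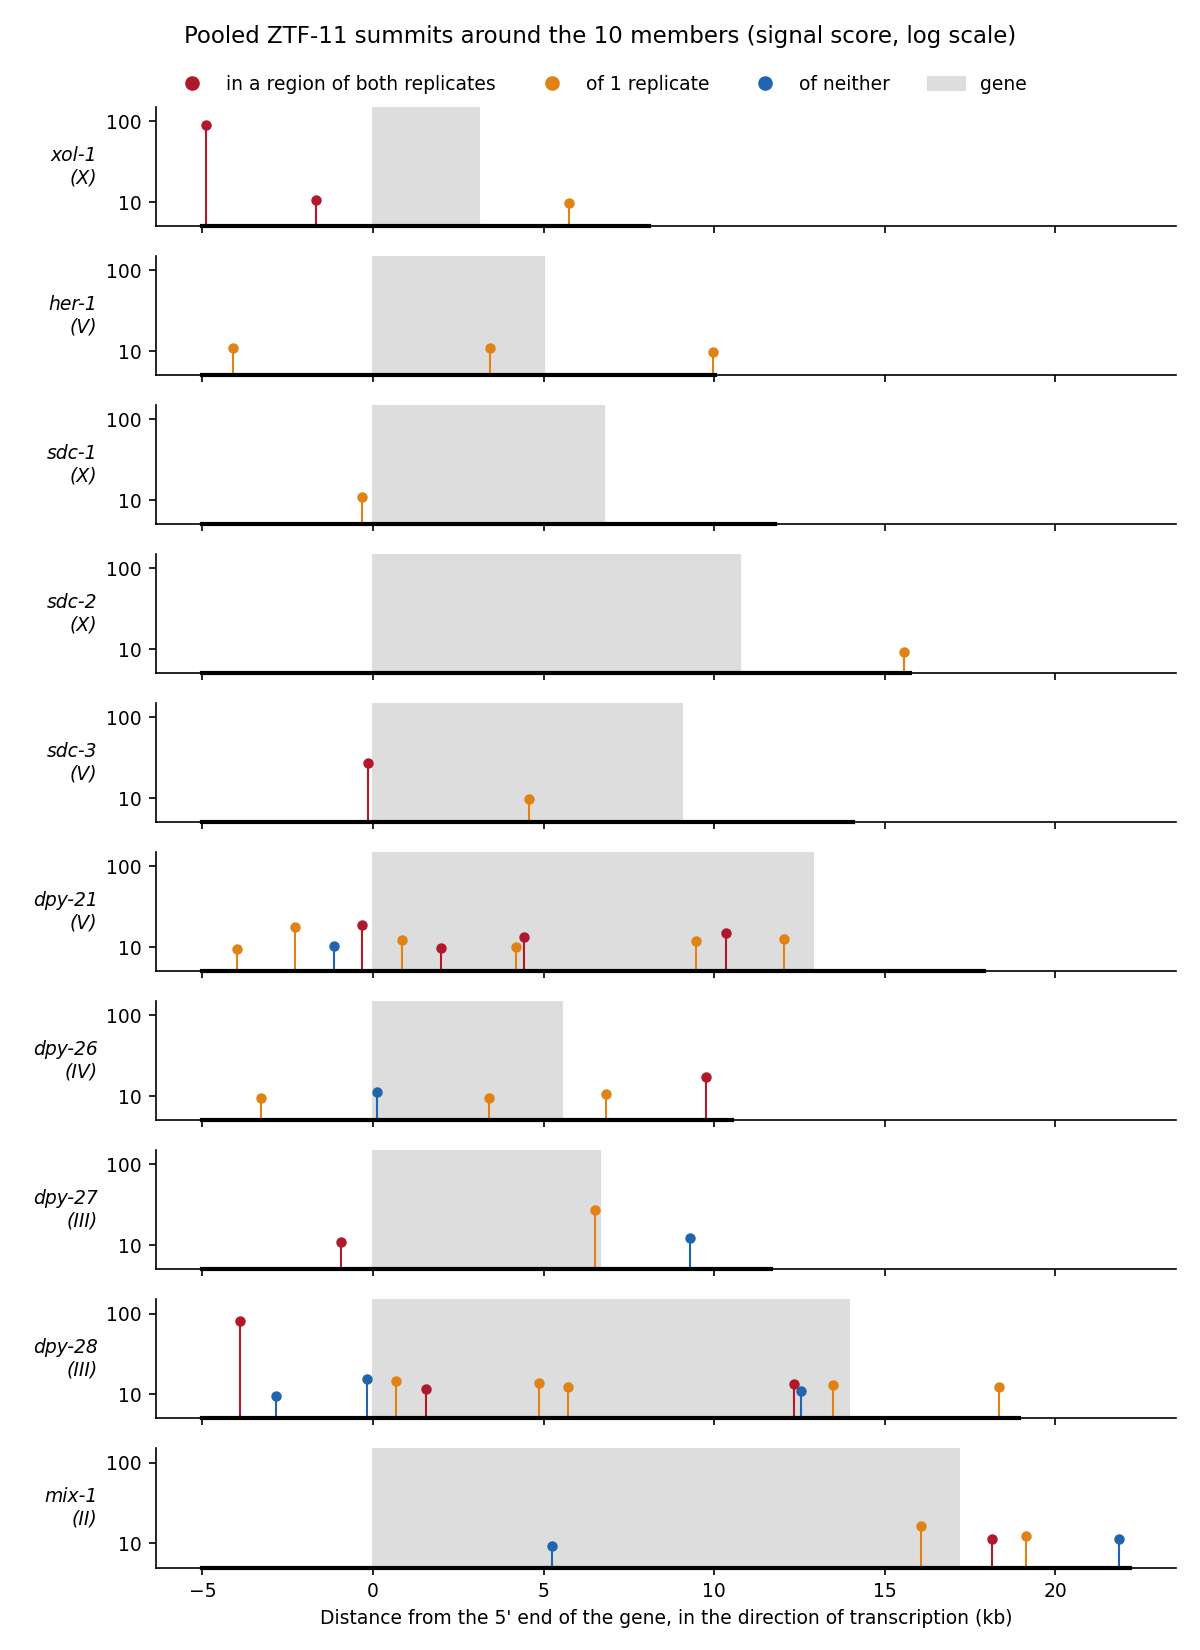
Pooled signal score (log scale) of each of the 45 summits against distance from the 5′ end of the gene in kb, with the gene in grey and the window as a black bar. Colours give whether a region of both replicates (red), of 1 (orange) or of neither (blue) held the summit: 13 were in both, and 4 of the 45 reach a score of 20, near xol-1, dpy-28, dpy-27 and sdc-3.

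Over the 10 windows the pooled list had 45 summits, at least 1 at each gene, against 86% of all genes with one. Replicate 1 had 58 and replicate 2 had 59, again in all 10 windows, against 95.3% and 95.1% of all genes. By the 5′ end of the gene, and by no internal transcript start, a pooled summit was in the promoter window of 6 members, against 35.7% of all genes. These shares say little, since the pooled lists keep background regions and the members are long, with a median of 7916 bp against 2027 bp for all genes. The density was 0.236 pooled summits per kb of window, and 0.193 over all genes.

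Of the 45, 4 scored 20 or more, and the other 41 ranged from 9.26 to 19.0 with a median of 11.2. The authors' −log10 q value was 0.547 at the highest of the 41 and 0.0187 at the lowest. It was 1.65 at the xol-1 and dpy-28 peaks. By position 14 of the 45 were upstream of the member, 21 in it and 10 past its end. By annotation 19 were in introns, 15 between genes, 8 in coding exons and 3 in 3′ UTRs. The member was the nearest protein-coding gene for 21 of them. Regions of both replicates held 13 of the 45 (28.9%), against 25.3% of all nuclear pooled summits. A further 12 were in replicate 1 only, 12 in replicate 2 only and 8 in neither (17.8%, against 12.0%). Counting any overlap of the pooled region, a choice made after seeing the data, 17 were in both replicates, 24 in 1 and 4 in neither. Most of the weak summits were therefore not found in both replicates.

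**Figure D4:**
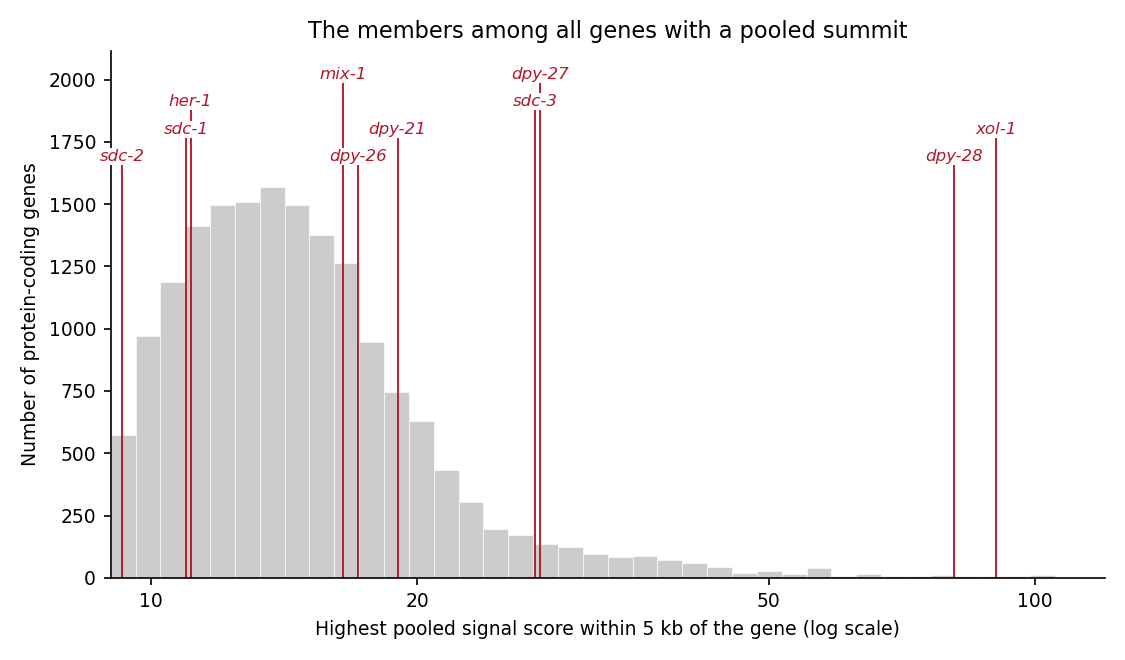
Number of protein-coding genes (grey bars) by the highest pooled signal score in the gene's window (x axis, log scale), with each member's value as a red line. xol-1 and dpy-28, at 90.4 and 80.9, stand at the far right, dpy-27 and sdc-3 at 27.6 and 27.2, and sdc-2, at 9.27, at the left edge.

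Ranked by the highest pooled score in the window among genes that have one, xol-1 was at percentile 99.9, dpy-28 at 99.7, dpy-27 at 95.1 and sdc-3 at 94.9. dpy-21 was at 83.1, dpy-26 at 74.6 and mix-1 at 70.3. The lowest were her-1 at 17.7, sdc-1 at 16.3 and sdc-2 at 0.891. The low place of sdc-2 and her-1 did not hold in the replicate lists. By each list's own highest score sdc-2 was at percentile 79.8 in replicate 1 and 95.2 in replicate 2, and her-1 at 67.0 and 47.2. The strongest replicate 2 score near sdc-2, 14.1, was above its pooled 9.27. sdc-1 stayed lower, at 27.8 and 8.77, and xol-1 was at 99.97 and 99.5. The median over the 10 was 18.1, against 14.1 over all genes and 14.9 over the 5903 genes of the members' length range.

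The window edge bears on both strong peaks. The xol-1 summit was 4896 bp away, so it was nearly left out, and the dpy-28 summit was 3892 bp away. Just outside the windows the nearest pooled summits were weaker than these peaks: 497 bp beyond the window of dpy-21 (12.6), 835 bp beyond that of dpy-27 (10.9), 960 bp beyond that of her-1 (14.8) and 1091 bp beyond that of xol-1 (16.6). The highest score of her-1 also depended on the edge: it was 11.1 inside the window and 16.3 with 10000 bp on either side. Scores of all genes were not computed for the wider window, so the place of her-1 among them there is unknown. Beyond the window of sdc-2 the nearest summit scored 14.1, against 9.27 inside, but lay 6475 bp from the edge.

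The recruitment word separated the xol-1 peak from the dpy-28 peak and grouped it with other X peaks. CGCGCAGGG, on either strand in the 300 bases around a summit, was present at 10 of the 47 thresholded X peaks (21.3%) and at 0 of the 141 autosomal ones. Of other pooled regions it was at 2 of 3364 on X (0.0595%) and 2 of 16649 on autosomes (0.0120%). Of the 10 peaks, 7 carried 1 copy and 3 carried more, and xol-1 alone had copies on both strands. A match is a description of the letters, and no annotation of recruitment elements was used here.

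The word is shown in its surroundings at xol-1 and at the 5 other X peaks scoring above 80 that hold it, each named by its nearest protein-coding gene, to compare the bases beside it. Each line has 25 bases from the strand that reads CGCGCAGGG, with the word in capitals and the copy nearest to the summit where a peak had several. In order the places are chrX:8036426-8036450 (+), chrX:8036393-8036417 (−), chrX:4209258-4209282 (−), chrX:11094218-11094242 (−), chrX:6296567-6296591 (+), chrX:2997115-2997139 (−) and chrX:14525892-14525916 (−) of WBcel235.
xol-1, forward copy: ttttccatCGCGCAGGGaacccttc
xol-1, reverse copy: ttttttatCGCGCAGGGacgtatgt
F20B6.9: gccgctatCGCGCAGGGacacctct
W02H3.3: gaaccattCGCGCAGGGacacctca
cest-16: ataggtatCGCGCAGGGaagattta
Y41G9A.17: aaatttatCGCGCAGGGaggaagta
nspc-17: ttgcctatCGCGCAGGGacagatgt
Across all 13 copies at the 10 peaks, 12 were preceded by T, 11 were followed by A and only 2 by AG. The middle of the nearest copy lay within 50 bp of the summit at 9 of the 10 peaks, with a median of 27 bp.

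The X peaks with the word had a median pooled score of 85.3, and the 37 without it 42.3. Of the 10 highest X peaks 7 held it, and xol-1 was among them. On the whole of X the word occurs at 33 places (1.86 per Mb), of which 13 lay within 150 bp of a thresholded summit. On the autosomes it occurs at 44 (0.533 per Mb), of which 0 did. Most copies on X were thus not at a thresholded summit. In the windows of the other 9 members the 9-letter word was absent. her-1 had 1 place with the 8-letter form GCGCAGGG, and sdc-2 had 1 with the 7-letter form CGCAGGG, neither at a pooled summit.

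**Figure D5:**
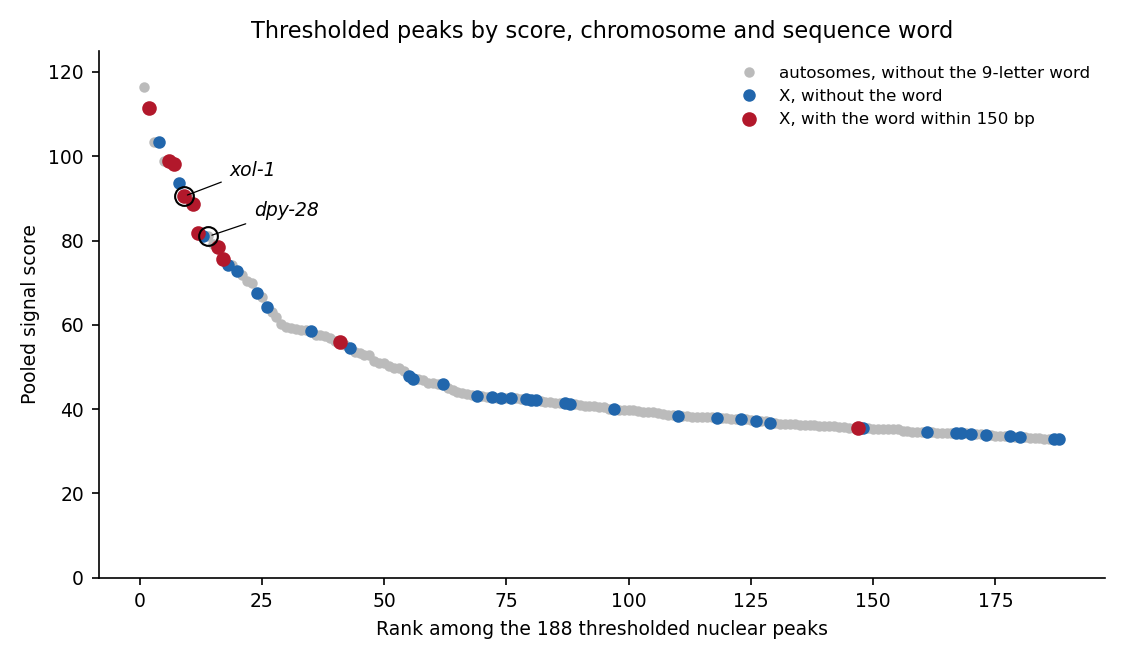
Pooled signal score of the 188 thresholded nuclear peaks by rank: grey points are autosomal, blue points X peaks without the 9-letter word and red points X peaks with it within 150 bp. The xol-1 peak (90.4, red) and the dpy-28 peak (80.9, grey) are circled, and 7 of the 10 highest X peaks are red.

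AAAGTT was absent from the 300 bases around the thresholded summits of xol-1 and dpy-28 and around the sdc-3 summit. It was present at 19 of the members' 45 pooled summits (42.2%), against 48.2% of all nuclear pooled summits. At thresholded peaks the share was 19.1% on X and 18.4% on autosomes. Thresholded windows were also richer in GC, at 44.8% on X and 43.4% on autosomes. In other pooled regions GC was 34.4% and 33.7%. No word share given here was adjusted for base composition. Base composition differed between the strong members' peaks, with 32.7% GC at xol-1, 35.3% at sdc-3 and 47% at dpy-28.

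A list of 23 other genes of the pathway was also searched. It held elements of the X-to-autosome signal, of which sea-1 and sea-2 lie on chromosome II, and further complex, condensin and cohesin subunits. It also held further sex determination genes. Of the 23, 0 had a thresholded summit, against 2.67% of all genes, and 22 had a pooled one, against 86%. Both counts were near those shares. Across the list the median highest score was 14.3, close to the 14.1 of all genes. The gene with no pooled summit was capg-2, a condensin subunit. The highest was at tra-2, the membrane receptor for the HER-1 ligand, where a summit 14084 bp from its start scored 28.4 but lay in the 5′ UTR of the homeobox gene ceh-38. Next came tra-4 (20.6), with the summit 251 bp from the start of the kinase gene kin-29, and fem-1 (18.6), which promotes male development, with its summit 7214 bp from its start. At the tra-2 and fem-1 summits only replicate 2 had a region, with scores of 17.0 and 12.1, and at that of tra-4 only replicate 1, with 17.1.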

How the data were processed

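ZTF-11 chromatin immunoprecipitation was analysed in 1 group of 2 biological replicates, numbered per the labels. Per the file headers, meaning the accompanying text notes, the authors called regions against a control for each replicate and for both pooled, left background regions in these lists, and took the thresholded set by the irreproducible discovery rate. Which aligner and caller they used, that threshold and the handling of reads that map to several places were not given in the sources used here. Each deposited signal score is a region's own value, used for ranks inside a list and for showing 1 replicate next to the other. The deposited −log10 q value was not used for ranks, because it saturates at the strongest regions, as at xol-1 and dpy-28 (1.65 in the pooled list). Below them it varied, with 1.51 at the sdc-3 summit and 0.0187 at the sdc-2 summit. Read depth is unknown, and the ce10 lists were not used here.

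Genes came from Ensembl release 115 and sequence from RefSeq, both on WBcel235. A summit counted as found in a replicate when a region of that replicate held it, and a region that only overlapped the pooled one is named where it bears on a result. Words were searched on both strands in 300 bases around the summit. The members, the list of other pathway genes and the words were chosen with earlier results of these data known. No test was run, because there was 1 group and the members were chosen on the regions described. The text names all members, the 3 pathway genes of highest score, the 3 peaks nearest in score to each thresholded one, and the strongest X peaks that share the word. GAGAGAGA, GCGCGA and CGCGCA were also searched. At the members' summits they occurred in 2, 6 and 5 of 45 windows (4.44%, 13.3% and 11.1%). In pooled regions outside the thresholded set the shares were 2.59%, 3.69% and 5.35% on X. On autosomes they were 3.18%, 4.06% and 4.95%. The 45 windows include 2 thresholded summits, so those sets are not alike. Thresholded peaks on X had shares of 14.9%, 29.8% and 42.6%, and those on autosomes 15.6%, 23.4% and 24.1%. At xol-1 GCGCGA and CGCGCA overlap the copies of CGCGCAGGG, so that window is counted again. The work was done in Python 3.11.15 with numpy 2.4.6, pandas 2.3.3 and matplotlib 3.10.9. The rules for window edges, signs of distances and word search were tried on made-up cases. That trial did not run the code that made the reported counts.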

Additional observations from a re-analysis of the deposited data

How the results depend on the processing

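The count of 2 members with a thresholded summit rests on the distance allowed: it was 0 with 2000 bp on either side of the gene and 0 in the promoter window. It was 4 with the 1000 highest nuclear pooled regions, with sdc-3 and dpy-27 added. That cut is a score of 20.1. Among genes with a pooled summit the top decile of highest window scores began at 21.7, so more genes than that decile reached the cut. All 4 members scored above 27, as 4.49% of all genes did. With the highest regions of 1 replicate alone the count of members was 2 to 3. There dpy-21 was the gene added without replicate 1, and xol-1 and dpy-28 were kept in both. For the other pathway genes the count of 0 became 2 (tra-2 and tra-4) with the 1000 highest regions. The exact share of all genes at that cut was not computed, so the rise cannot be read as a difference from them. With a replicate left out the pathway count was 0 to 1, tra-2 being the gene without replicate 1. Members with a pooled summit were 6 in the promoter window and 10 with either replicate alone. Of 55 alternatives for the members' strongest scores and their distances, 27 gave the reported value exactly and 28 another value. All 10 distances, which are those of each member's strongest summit only, were the same with the nearest transcript start. The cause was not tested. No paired analysis was possible because there is 1 group. The words CGGAGTG and AGAGAG and the copy count of AAAGTT were chosen after seeing the data. Without read counts, weak regions missing from 1 list cannot be told from regions just under its lower end.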
